A study of Ricinus communis with 18 samples.

Results

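Glutathione S-transferases were followed in roots of castor (Ricinus communis), an oilseed plant, in every gene whose deposited product name holds "glutathione S-transferase", "glutathione transferase" or "parC". The rule found 52 of the 21332 genes of the table, and 43 of them had enough counts to be tested. Roots were sampled after 3 or 7 days in 15% PEG-6000 (polyethylene glycol, a polymer that lowers the water potential of the root medium and is used to imitate drought) or 4 days after PEG had been removed, on day 11. Each of these groups had an untreated group of the same day, and each of the 6 groups had 3 RNA-seq libraries. The sources used here do not give plant age, cultivar or the number of plants in a library, nor whether libraries of 1 group stem from different plants. The p-values below therefore measure only the spread between libraries, which may be technical. In whole roots, fewer cells of a type and less RNA per cell cannot be told apart.

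Glutathione S-transferases join the tripeptide glutathione to electrophilic compounds, which makes these compounds more soluble and marks them for export from the cytosol. In plants the conjugates are carried into the vacuole by ABC transporters of the C family. The tau and phi classes are the large plant classes, known for herbicide detoxification and for induction by many stresses, and several members also reduce organic hydroperoxides. Members of the lambda and DHAR classes carry a cysteine at the active site and act as thiol transferases and dehydroascorbate reductases, whereas the microsomal member belongs to an unrelated family of membrane proteins. The product names are best matches in other species, so a castor gene may not have the role of its namesake.

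By product name, the 52 genes were 18 tau, 3 phi, 3 theta, 3 lambda, 3 DHAR, 3 parC, 2 omega-like, 1 TCHQD and 1 microsomal gene, and for the remaining 15 no class was given. The parC genes are named after an auxin-regulated gene of tobacco. That name does not state a class, so these genes were counted apart from tau whatever their class may be. Of the 52, 44 were listed in the glutathione metabolism pathway of the deposited annotation, which holds 87 genes of the table. The length of the tested members, taken from their ratio of counts to FPKM, ran from 531 to 1510 bases with a median of 888, against a median of 1662 for all tested genes.

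The 18 libraries held 6607760 to 10817476 assigned fragments. Levels are given as deposited FPKM (fragments per kilobase of transcript, scaled by library totals), except in the untreated roots of day 11, whose FPKM were derived here from counts, library size and gene length. Fold changes come from edgeR's fit to the counts with TMM scaling. The TMM factors were 0.765 to 0.806 in the PEG libraries of day 3 and 0.809 to 0.95 in those of day 7. In the untreated libraries they were 0.968 to 1.267. A fitted fold change at 3 days, and to a lesser degree at 7 days, therefore lies above the ratio of the FPKM means. Genes that mark roots were detected in every group: all 4 Casparian strip membrane protein genes, SHORT-ROOT and both nitrate transporter 2.1-like genes had counts. At 3 days the summed level of the 38 genes of the root list was 1098.5 to 1260.8 FPKM in untreated roots and 534.6 to 581.3 FPKM in PEG roots. Much of this drop lay in the 2 nitrate transporter 2.1-like genes, which summed to 402.7 to 603.9 FPKM and 6.1 to 48.0 FPKM. Of the 32 tested genes of the list, 8 were lower and 1 higher by edgeR at adjusted p below 0.05. Among all tested genes 11.4% were lower and 11.7% higher.

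A few genes held most of the family's transcript. The tau gene ncbi_8278055, named TAU 19, had the highest mean over all libraries at 913.5 FPKM, followed by the parC gene ncbi_8277756 at 551.2 FPKM and the gene ncbi_8265677, named only probable glutathione S-transferase, at 371.1 FPKM. The highest member of a library made up 17.0% to 44.7% of the summed level of all 52 members, and the 5 highest made up 53.1% to 78.5%. Of the tested members, 8 had a mean of at least 100 FPKM, 17 a mean of 10 to 100, 17 a mean of 1 to 10, and 1 a mean below 1. The 9 untested members had 0 to 75 counts over all 18 libraries, and 4 of them had 0 counts throughout (ncbi_8279131, ncbi_8284252, ncbi_107260728 and ncbi_8266510).

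**Figure D1:**
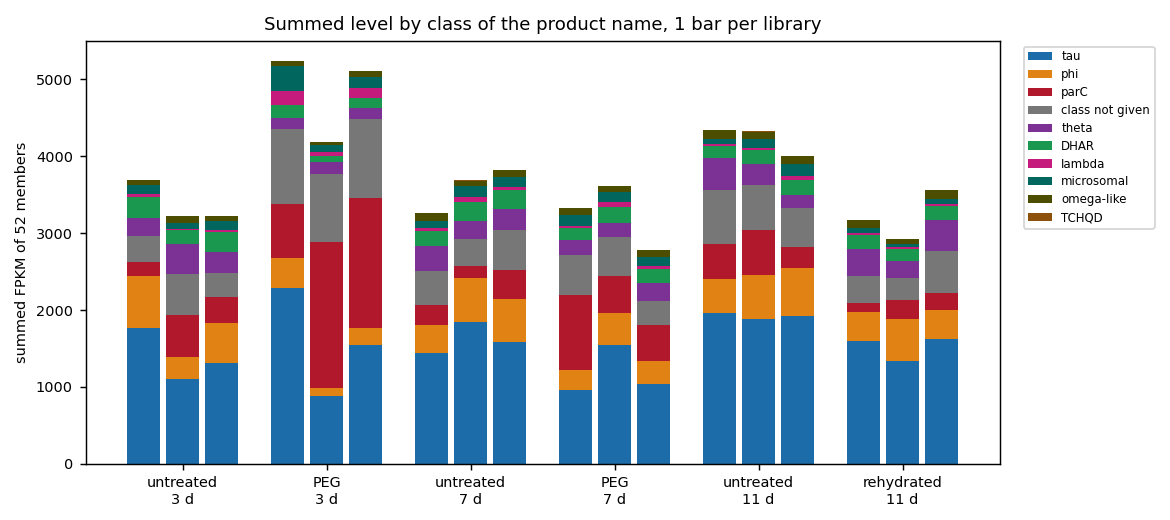
FPKM (deposited, or computed from counts for the untreated roots of day 11) summed over the 52 members (vertical axis) in each of the 18 libraries (1 bar per library, 3 per group), split by the class in the product name. The parC segment is largest in PEG libraries 2 and 3 of day 3, and the bars of the PEG roots of day 3 all stand above those of the untreated roots of the same day.

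The summed level of all 52 members was 3225.2 to 3696.0 FPKM in the untreated roots and 4189.9 to 5242.2 FPKM in the PEG roots of day 3, with no overlap. On day 7 the untreated libraries held 3261.3 to 3827.4 FPKM and the PEG libraries 2781.9 to 3613.7 FPKM, which overlapped. On day 11 the untreated libraries held 4004.2 to 4345.4 FPKM and the rehydrated libraries 2929.1 to 3561.6 FPKM, again without overlap and with the treated group on the lower side. These sums are led by the few abundant genes and are given as a description.

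At 3 days of PEG, 14 of the 43 tested members rose and 3 fell (edgeR's quasi-likelihood test, adjusted p below 0.05 over all 16085 tested genes). That is 32.6% higher and 6.98% lower, beside 11.7% higher and 11.4% lower among all tested genes. The median log2 fold change of the members was 0.23, against -0.08 for all genes. With the trend on gene length removed these medians were -0.03 and 0.005 (the members are short), and 25.6% of members were higher and 20.9% lower, beside 11.4% and 8.44% of all genes. Members that rose came from the parC, tau, lambda, DHAR and microsomal groups and from the genes without a class, and those that fell were 2 tau genes and the TCHQD gene. Which members moved therefore differed among the genes named as tau, where 5 of 16 rose, 2 fell and 9 did not pass the test.

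**Figure D2:**
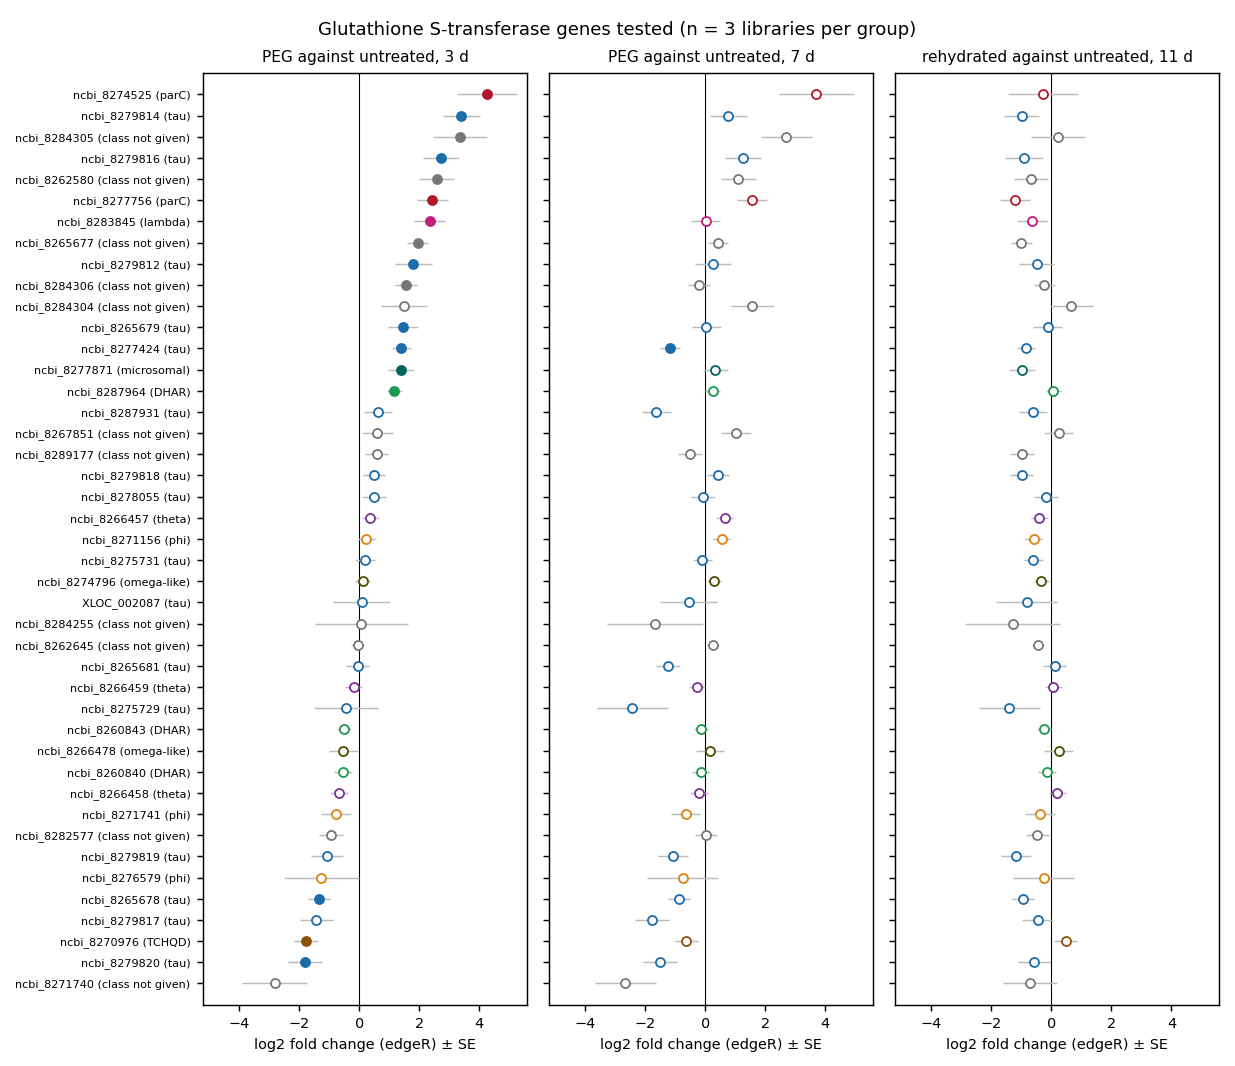
Fitted log2 fold change with its standard error (horizontal axis) for each of the 43 tested members (rows, ordered by the change at 3 days), in PEG roots of day 3, PEG roots of day 7 and rehydrated roots of day 11, each against untreated roots of the same day. Filled points passed the test: 17 at 3 days, 1 at 7 days and none at 11 days.

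Both tested parC genes rose. ncbi_8277756 was at 183.65, 547.17 and 333.23 FPKM in the untreated libraries and at 690.03, 1871.2 and 1677.47 FPKM in the PEG libraries. The lowest PEG library stood above the highest untreated one, and in PEG libraries 2 and 3 this was the most abundant member. Its log2 fold change was 2.43 ± 0.52 (SE, n = 3 per group, edgeR adjusted p = 0.00477). ncbi_8274525 was at 0.0, 2.1 and 0.79 FPKM in the untreated libraries and at 10.55, 19.35 and 11.66 FPKM in the PEG libraries. It went from 14 counts in the 3 untreated libraries to 223 in the 3 PEG libraries, which did not overlap, with a log2 fold change of 4.25 ± 1.01 (adjusted p = 0.00838). The third parC gene, ncbi_107260728, had no counts.

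Among the 11 tested genes without a class, 4 rose and none fell by edgeR, beside 11.7% higher and 11.4% lower among all tested genes. At an unadjusted p below 0.05 there were 6, a threshold at which the other genes were not counted. DESeq2, which called 13.4% of all genes lower, added 1 lower call, ncbi_8271740. The abundant gene ncbi_8265677 was at 184.31, 396.35 and 233.2 FPKM without PEG and at 789.26, 693.81 and 835.84 FPKM with it. All PEG libraries lay above all untreated ones, and the log2 fold change was 1.95 ± 0.35 (edgeR adjusted p = 0.00182). The far less abundant ncbi_8262580 went from 8.38, 2.66 and 2.79 FPKM to 17.73, 10.8 and 32.2 FPKM, also without overlap (2.58 ± 0.59, adjusted p = 0.00689). ncbi_8284305 was at 0.0, 0.51 and 0.24 FPKM and rose to 0.47, 3.29 and 2.22 FPKM, which is 6 counts against 54 over the 3 libraries of each group. Its groups overlapped, its log2 fold change was 3.36 ± 0.89 (adjusted p = 0.0144), and the call ended without untreated library 1 (2.80, adjusted p = 0.0572) or PEG library 2 (2.78, adjusted p = 0.0629). ncbi_8284306, which falls outside the rule for named genes and was chosen after its values were seen, rose by 1.55 ± 0.37 (adjusted p = 0.00805), from 33.38 to 95.41 FPKM in untreated roots to 126.55 to 149.43 FPKM in PEG roots. A pair of genes in this group, ncbi_8262645 and ncbi_8289177, carry the symbol GSTZ, the zeta class, which is known for the isomerase step of tyrosine breakdown. Their log2 fold changes were -0.05 ± 0.21 and 0.58 ± 0.39, and neither passed the test. The genes ncbi_8271740 and ncbi_8267851 carry symbols that begin with GSTF, as do the symbols of the 3 genes named as phi. They were at -2.82 ± 1.09 and 0.60 ± 0.51 and did not pass edgeR's test (adjusted p = 0.0725 and 0.412). By product name neither is counted as phi here.

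Among the genes named as tau, the one with the largest change was ncbi_8279814, named U7-like. It stood at 2.94, 3.84 and 1.37 FPKM in untreated libraries and at 9.84, 20.82 and 33.09 FPKM in PEG libraries, so that every PEG library exceeded every untreated one. Its log2 fold change was 3.40 ± 0.61 (edgeR adjusted p = 0.00173). Another U7-like gene, ncbi_8279816, went from 1.5, 1.24 and 1.01 FPKM to 2.04, 5.04 and 11.58 FPKM without overlap, with PEG library 3 far above the other PEG libraries (2.73 ± 0.60, adjusted p = 0.00546). The gene named U9, ncbi_8277424, was at 121.86, 152.97 and 115.51 FPKM and then at 395.04, 139.69 and 226.32 FPKM. PEG library 2 lay within the untreated range, the log2 fold change was 1.40 ± 0.32 (adjusted p = 0.00653), and leaving out PEG library 1 gave 0.92 (adjusted p = 0.0263). The call ended under the 3 forms of limma on log2 FPKM (0.84, adjusted p from 0.0704 to 0.0843) and when only the libraries compared were fitted (1.39, adjusted p = 0.0709).

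The other 2 tau calls upward, both chosen after their values were seen, rested on more uneven libraries. The tau 7 gene ncbi_8265679 had 19.91 to 90.06 FPKM in untreated roots and 92.45 to 108.07 FPKM in PEG roots (log2 fold change 1.45 ± 0.49, edgeR adjusted p = 0.0434). Its call ended when any library but untreated library 2 was left out (adjusted p = 0.151 and 0.119 without untreated libraries 1 and 3, and 0.0622, 0.0834 and 0.0927 without PEG libraries 1, 2 and 3), and without untreated library 2 the change was 2.25 (adjusted p = 0.00572). The U7-like gene ncbi_8279812 had 18.77 to 48.42 FPKM and then 49.71 to 116.59 FPKM (1.80 ± 0.61, adjusted p = 0.0439). That call ended without untreated library 1 or 3 (adjusted p = 0.147 and 0.128) and without PEG library 2 or 3 (0.0746 and 0.152).

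The most abundant member, tau gene ncbi_8278055, did not pass the test. It was at 1276.47, 513.87 and 872.19 FPKM in untreated roots of day 3 and at 1505.41, 436.79 and 798.63 FPKM in PEG roots, 2 groups that overlapped across most of their range (log2 fold change 0.49 ± 0.41, edgeR adjusted p = 0.401).

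Single members of the lambda, DHAR and microsomal groups also rose. The lambda gene ncbi_8283845, named L3-like, went from 48.55, 11.9 and 32.93 FPKM to 178.07, 45.44 and 127.44 FPKM, with PEG library 2 below the highest untreated library (log2 fold change 2.35 ± 0.52, edgeR adjusted p = 0.00551). The other 2 lambda genes had 19 and 2 counts over all libraries and were not tested. DHAR3, ncbi_8287964, named for a plastid enzyme that reduces dehydroascorbate and so returns ascorbate to use, went from 7.77, 5.71 and 8.21 FPKM to 10.47, 14.49 and 10.57 FPKM (1.16 ± 0.25, adjusted p = 0.00461, chosen after its values were seen). The microsomal gene ncbi_8277871 was at 104.38, 71.41 and 113.76 FPKM and then at 327.56, 93.63 and 139.77 FPKM, with PEG library 2 inside the untreated range (1.40 ± 0.43, adjusted p = 0.0288). Its call ended without PEG library 1 (0.71, adjusted p = 0.171) and without untreated library 1 (1.43, adjusted p = 0.075) or 2 (1.24, adjusted p = 0.0782).

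The 3 members that fell were all tau or TCHQD genes. The U7-like gene ncbi_8279820 was at 86.95, 41.68 and 68.61 FPKM in untreated libraries and at 23.81, 2.27 and 15.23 FPKM in PEG libraries, with no overlap (log2 fold change -1.81 ± 0.56, edgeR adjusted p = 0.0305). That call ended without untreated library 1 (-1.59, adjusted p = 0.0992) or 3 (-1.75, 0.0656) and without PEG library 2 (-1.32, 0.0561) or 3 (-1.87, 0.0729). The tau 7 gene ncbi_8265678 went from 37.97, 24.71 and 24.79 FPKM to 7.16, 5.28 and 12.66 FPKM, again without overlap (-1.35 ± 0.37, adjusted p = 0.0161), and its call ended without untreated library 1 (-1.15, adjusted p = 0.0704) or PEG library 2 (-1.12, adjusted p = 0.074). The TCHQD gene ncbi_8270976, whose class is named after its likeness to a bacterial dehalogenase, was at 2.67, 5.77 and 3.51 FPKM and then at 0.68, 1.08 and 0.77 FPKM. Every PEG library lay below every untreated one (-1.78 ± 0.41, adjusted p = 0.00701).

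**Figure D3:**
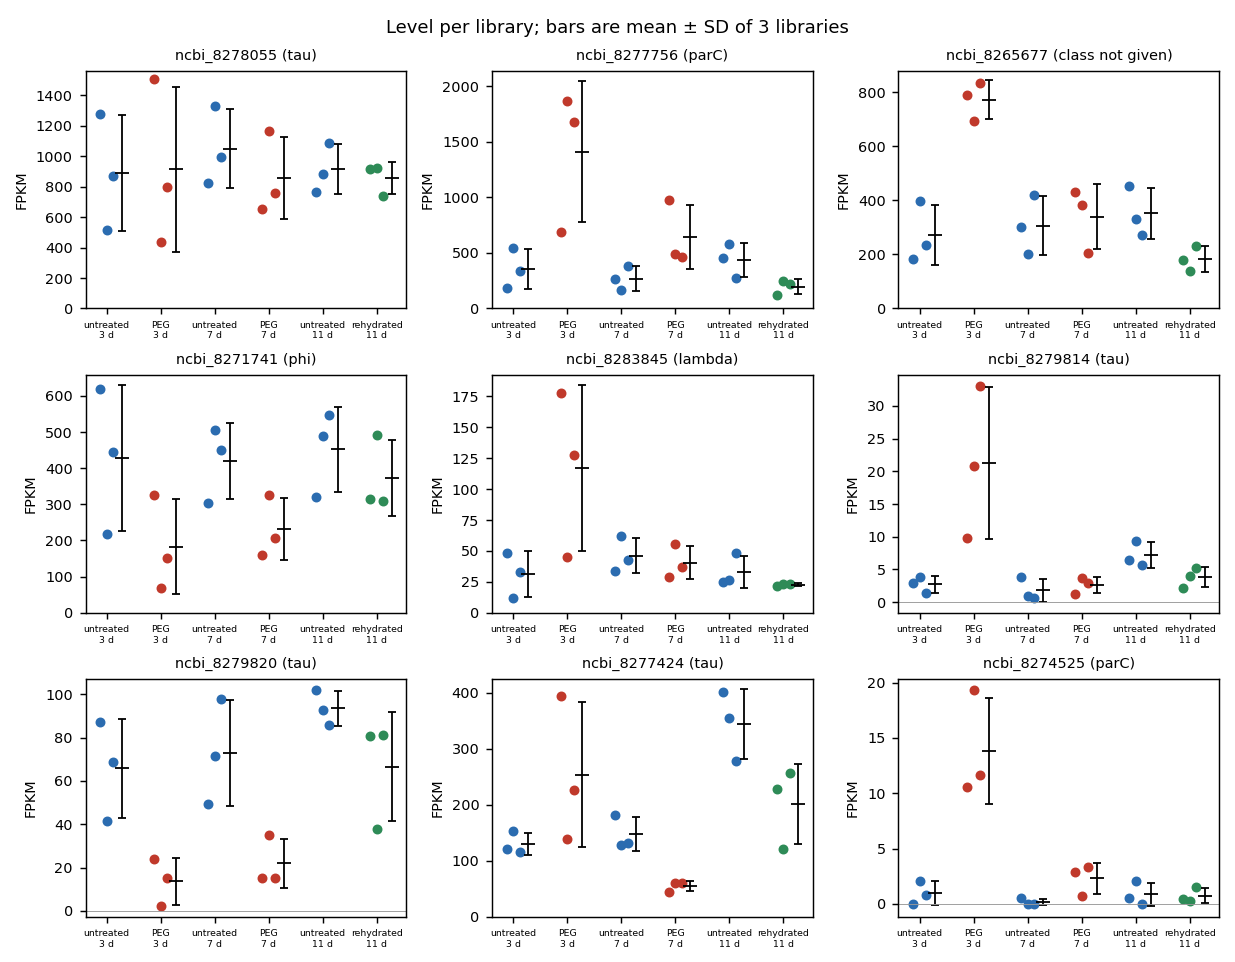
FPKM (deposited, or computed from counts for the untreated roots of day 11; vertical axes, each starting at or just below 0) of 9 members in the 6 groups: points are the 3 libraries of a group, bars the mean ± SD. In the PEG roots of day 3 the parC gene ncbi_8277756 and ncbi_8265677 stand above the untreated roots of that day, while the tau gene ncbi_8278055 overlaps its untreated group on each day.

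The phi, theta and omega-like genes and the 2 DHAR2 genes gave no call by edgeR at 3 days. Of the 3 phi genes, ncbi_8271741 was the most abundant, at 620.34, 218.69 and 444.87 FPKM in untreated roots and 325.94, 69.62 and 151.23 FPKM in PEG roots, which overlapped (log2 fold change -0.78 ± 0.49, adjusted p = 0.256). The highest theta gene, ncbi_8266458, named T1-like, was at 204.53, 357.58 and 230.87 FPKM and then at 114.63, 136.99 and 115.46 FPKM. Its groups did not overlap, but the fitted change of -0.67 ± 0.29 did not pass the test (adjusted p = 0.108). The 2 genes named DHAR2, which lie side by side, were at -0.55 ± 0.30 (ncbi_8260840, 142.91 to 213.61 FPKM untreated and 49.76 to 139.03 FPKM with PEG) and -0.51 ± 0.24 (ncbi_8260843). The more abundant omega-like gene, ncbi_8274796, was at 60.44 to 86.16 FPKM and 40.34 to 70.28 FPKM (0.11 ± 0.24, adjusted p = 0.761). At an unadjusted p below 0.05 there were no phi gene, 1 theta gene, 1 DHAR2 gene and no omega-like gene, and DESeq2 called none of these genes. Limma on log2(FPKM + 1) called 4 of them lower, namely phi ncbi_8271741 (-1.37, adjusted p = 0.0423), theta ncbi_8266458 (-1.07, 0.0238) and the DHAR2 genes ncbi_8260840 (-1.08, 0.0144) and ncbi_8260843 (-0.94, 0.00562). Under that setting 23.7% of all genes were called lower and the median of all genes was -0.386, since FPKM are scaled by library totals. The DHAR2 pair was also called by edgeR with the length trend removed (adjusted p = 0.0429 and 0.0154), where 8.44% of all genes were lower.

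How evenly the family split at 3 days depended on the scaling. The removal of the length trend gave 11 members higher and 9 lower. With library totals in place of TMM, 11 members were higher and 9 lower, the members' median went from 0.23 to -0.20, and that of all genes from -0.08 to -0.52. Beside those 25.6% and 20.9% of members stand 5.67% and 25.8% of all genes under the same scaling. Under library totals the DHAR2 pair (ncbi_8260840 at -0.99 and ncbi_8260843 at -0.94), the theta gene ncbi_8266458 (-1.11), the U7-like gene ncbi_8279817 (-1.88) and 2 genes without a class (ncbi_8271740 at -3.27 and ncbi_8282577 at -1.37) were called lower (edgeR adjusted p from 0.007 to 0.0362). The 17 members called with TMM kept their direction under each alternative in which they were tested and with each library left out (ncbi_8284305 had too few counts when only the libraries compared were fitted), and 11 of the 17 kept their call without each library in turn. The calls of ncbi_8265679, ncbi_8277871 and ncbi_8279812 also ended with library totals (adjusted p from 0.0718 to 0.113), with the length trend removed (0.0771 to 0.303) and with limma on log2(FPKM + 1) (0.0513 to 0.14). When only the libraries compared were fitted, 10 of the 16 calls that could be tested ended. For 6 members the call held under every alternative at the same threshold and without each library in turn.

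Many of the genes lie side by side. Of 49 members found in a RefSeq gene table of castor, 47 could be placed, and 29 of these fell into 9 runs of members with at most 2 other genes between neighbours. Reads from near-identical copies could be divided between such neighbours in the authors' counting, so values of single genes within a run are less certain than those of lone genes. The longest run held 7 U7-like tau genes, of which 6 were tested, 3 rose at 3 days (ncbi_8279816, ncbi_8279814 and ncbi_8279812) and 1 fell (ncbi_8279820), beside 11.7% higher and 11.4% lower among all tested genes. In order along the chromosome, the log2 fold changes at 3 days were -1.81 for ncbi_8279820, 0.49 for ncbi_8279818, -1.44 for ncbi_8279817, 2.73 for ncbi_8279816, 3.40 for ncbi_8279814 and 1.80 for ncbi_8279812. The calls upward thus stood together at one end of the run, beside the untested ncbi_8279813.

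**Figure D4:**
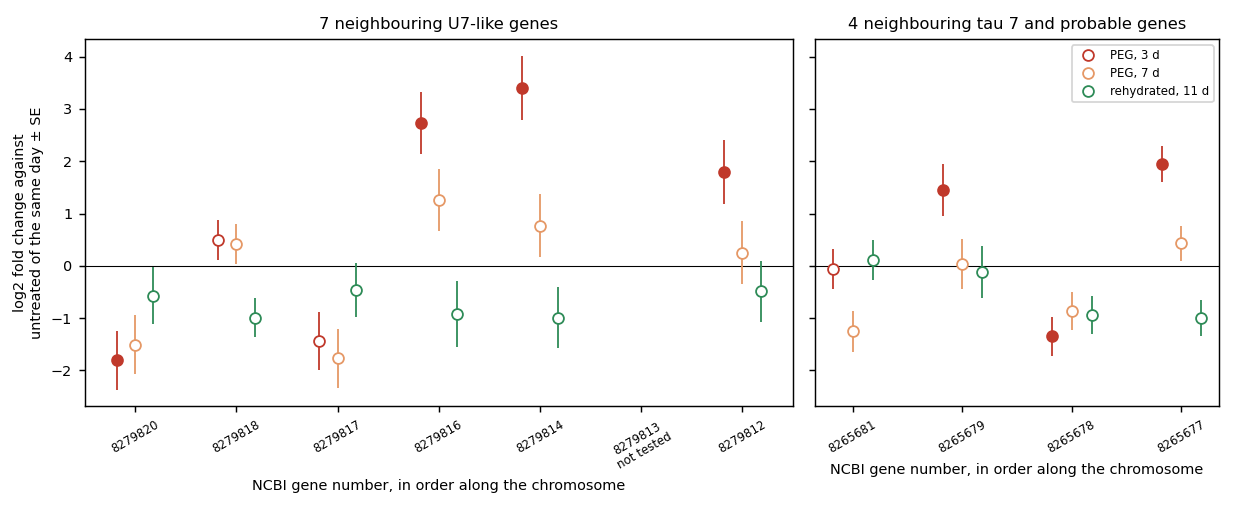
Fitted log2 fold change with its standard error (vertical axis) of the members of the 2 longest runs, in their order along the chromosome (horizontal axis, not to scale), for both PEG times and for rehydration. Filled points passed the test, and both runs hold members called higher and a member called lower at 3 days.

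The next run held 4 genes, and it too held calls in both directions: ncbi_8265679 (1.45) and ncbi_8265677 (1.95) rose at 3 days, ncbi_8265678 (-1.35) between them fell, and ncbi_8265681 was at -0.06. In a run of 3 genes without a class, ncbi_8284306 and ncbi_8284305 rose and ncbi_8284304 was at 1.49 ± 0.76 (edgeR adjusted p = 0.164). The parC gene ncbi_8274525 lay between ncbi_107260728, which had no counts, and ncbi_8274526, which had 3 counts, all in PEG libraries of day 3. The lambda gene ncbi_8283845 likewise stood between the 2 barely detected lambda genes. Of the 23 tested members inside runs, 9 rose and 2 fell at 3 days, and of the 20 others 5 rose and 1 fell. Among all tested genes 11.7% were higher and 11.4% lower. Whether members inside runs differ from the others was not tested.

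Across the 18 libraries, levels of neighbours ranged from closely tied to opposed. Pearson's r of log2(CPM + 1) had a median of 0.20 over the 29 pairs within a run, from -0.66 to 0.92, and a median of 0.10 over the 874 other pairs. These values are a description, since the pairs share libraries, depth and treatment. The DHAR2 pair was the closest (r = 0.92), followed by ncbi_8279820 with ncbi_8279817 (r = 0.91), both in the U7-like run. The lowest value within a run, -0.66, was that of ncbi_8279820 with ncbi_8279816. Among pairs from different places, ncbi_8279820 and the tau 7 gene ncbi_8265678 had r = 0.91, and the parC gene ncbi_8277756 had r = 0.85 with ncbi_8265677 and 0.84 with the other parC gene, ncbi_8274525.

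At 7 days of PEG, 1 of the 43 members fell and none rose by edgeR, which is 2.33% lower beside 1.46% lower and 2.59% higher among all tested genes. The median of the members was -0.08, against -0.06 for all genes. At an unadjusted p below 0.05 there were 14 members, a threshold at which the other genes were not counted. DESeq2 called 3 members higher and 4 lower, beside 1034 higher and 654 lower among all 16085 tested genes. Limma on log2(FPKM + 1) called no member higher and 5 lower, beside 285 higher and 564 lower among its 15911 genes. The member that fell was U9, ncbi_8277424, at 182.28, 127.6 and 131.61 FPKM in untreated roots and 45.12, 59.63 and 59.77 FPKM in PEG roots. The groups did not overlap, and the log2 fold change was -1.18 ± 0.32 (edgeR adjusted p = 0.0484). That adjusted p was 0.151, 0.152 and 0.0633 without untreated libraries 1, 2 and 3, and 0.216, 0.0761 and 0.116 without PEG libraries 1, 2 and 3, so the call rested on having all 6.

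U9 had moved the other way at 3 days, and it was the only member called by edgeR's interaction test (7 days minus 3 days, -2.58 ± 0.45, adjusted p = 0.0202). That is 2.33% of members beside 0.236% of all tested genes. At an unadjusted p below 0.05 there were 8 members, a threshold at which the other genes were not counted. The change of U9 was 1.40 at 3 days and -1.18 at 7 days. The interaction was not called without untreated library 1 or 3 of day 3 (adjusted p = 0.0624 and 0.104), untreated library 1 of day 7 (0.0885) or PEG library 1, 2 or 3 of day 7 (0.0597, 0.0686 and 0.0629), with values from -2.63 to -2.44.

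**Figure D5:**
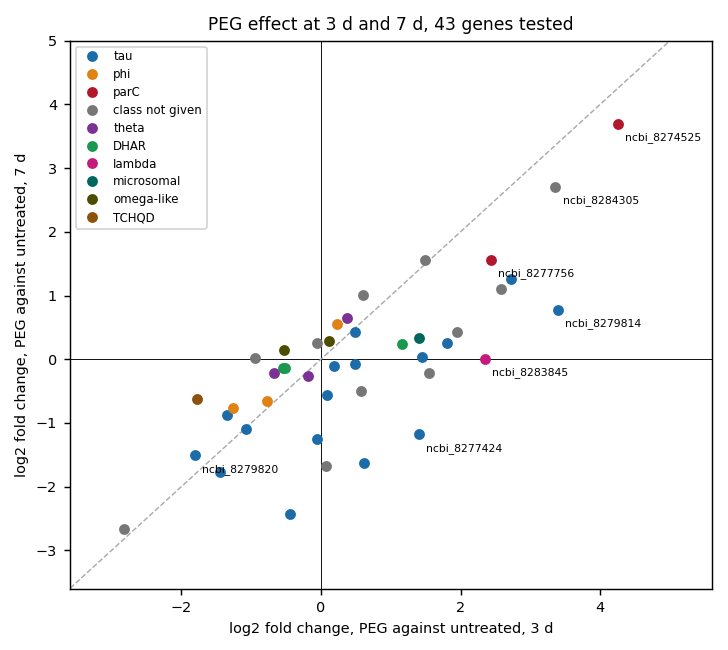
Fitted log2 fold change of the 43 tested members in PEG roots of day 3 (horizontal axis) and of day 7 (vertical axis), each against untreated roots of its own day, coloured by class; the dashed line marks equal change. The 2 tested parC genes lie above 0 on both days, and U9 (ncbi_8277424) lies to the right of 0 and below it.

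The parC genes remained on the upper side at 7 days without passing edgeR's test. ncbi_8277756 was at 265.61, 162.48 and 379.96 FPKM in untreated roots and at 978.67, 490.26 and 459.21 FPKM in PEG roots, with no overlap (log2 fold change 1.56 ± 0.51, adjusted p = 0.0875). ncbi_8274525 was at 0.52, 0.0 and 0.0 FPKM and then at 2.84, 0.73 and 3.32 FPKM, which is 3 counts against 34 (3.70 ± 1.25, adjusted p = 0.0981). DESeq2 called both, at adjusted p = 0.0244 and 0.0288, and also ncbi_8284305 (2.77, adjusted p = 0.0289), which had 9 counts in untreated and 48 in PEG libraries.

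Of the 14 members that had risen at 3 days, 12 had a log2 fold change above 0 at 7 days. The 14 values ran from -1.18 for U9 (ncbi_8277424) to 3.70 for the parC gene ncbi_8274525, with a median of 0.38. U7-like ncbi_8279816 was at 1.93, 0.52 and 1.61 FPKM in untreated and 2.64, 2.21 and 3.26 FPKM in PEG roots, without overlap (1.26 ± 0.59, edgeR adjusted p = 0.205), and ncbi_8262580 was at 1.10 ± 0.59 (adjusted p = 0.264). The lambda gene ncbi_8283845 was at 34.08, 61.72 and 42.93 FPKM and at 28.82, 55.24 and 37.05 FPKM (0.01 ± 0.49, edgeR adjusted p = 0.993). ncbi_8265677 was at 299.91, 201.76 and 418.67 FPKM and at 431.7, 383.62 and 205.65 FPKM, which overlapped (0.43 ± 0.34, adjusted p = 0.447). U7-like ncbi_8279814 was at 3.83, 0.87 and 0.71 FPKM and at 1.31, 3.66 and 2.93 FPKM (0.77 ± 0.61, adjusted p = 0.457). The difference between the days did not pass edgeR's interaction test in the last 3 genes, with adjusted p = 0.222 for ncbi_8283845, 0.245 for ncbi_8265677 and 0.247 for ncbi_8279814.

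The 3 members that had fallen at 3 days were at -1.51, -0.87 and -0.63 at 7 days and did not pass the test. The lowest of them, ncbi_8279820, was at 49.2, 71.33 and 97.95 FPKM in untreated roots and 15.41, 34.98 and 15.4 FPKM in PEG roots, without overlap (-1.51 ± 0.56, edgeR adjusted p = 0.124). The tau genes ncbi_8287931 (-1.63 ± 0.48, adjusted p = 0.0664), ncbi_8265681 (-1.25 ± 0.39, adjusted p = 0.0795) and ncbi_8279817 (-1.77 ± 0.56, adjusted p = 0.0810) missed edgeR's threshold and passed DESeq2's (adjusted p = 0.0155, 0.0323 and 0.0207).

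The PEG roots of day 7 also held more transcript of shoot genes. Of 38 tested genes for chlorophyll-binding, photosystem and Rubisco small-chain proteins, 26 were higher at 7 days and 9 at 3 days. Among all tested genes 2.59% were higher at 7 days and 11.7% at 3 days. The 52 shoot genes summed to 350.1 to 732.1 FPKM in untreated and 2444.9 to 3073.8 FPKM in PEG roots of day 7, and to 417.0 to 987.3 FPKM and 806.9 to 1879.2 FPKM on day 3. The 19 senescence-named genes summed to 1098.6 to 1593.7 FPKM in untreated and 1669.2 to 1786.2 FPKM in PEG roots of day 7, and to 953.6 to 1374.0 FPKM and 1402.3 to 1910.0 FPKM on day 3. Of the 11 of them that were tested, 3 were higher and 3 lower at 3 days by edgeR, beside 11.7% and 11.4% of all tested genes. At 7 days none of the 11 was called, beside 2.59% higher and 1.46% lower among all tested genes. Whether these shifts have a part in the values of the glutathione S-transferases was not tested.

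After 4 days without PEG, none of the 43 members differed from untreated roots of day 11 by edgeR, beside 0.0124% of all tested genes called in either direction. There were 8 members at an unadjusted p below 0.05, a threshold at which the other genes were not counted, so the 8 cannot be set against the 0.0124%. Neither DESeq2 nor limma on log2(FPKM + 1) called any member. The fitted values leaned downward, with a median of -0.47 against 0.01 for all genes and 34 of 43 members below 0. With the length trend removed the members' median was -0.27, against -0.003 for all genes. The parC gene ncbi_8277756 was at 450.35, 576.32 and 271.16 FPKM in untreated and 118.18, 250.38 and 216.1 FPKM in rehydrated roots, which did not overlap (log2 fold change -1.20 ± 0.50, adjusted p = 0.452). ncbi_8265677 was at 455.06, 330.35 and 271.55 FPKM and at 177.75, 138.03 and 232.99 FPKM, also without overlap (-1.0 ± 0.34, adjusted p = 0.377). U9, ncbi_8277424, was at 400.67, 354.42 and 277.57 FPKM and at 227.42, 121.6 and 256.48 FPKM, without overlap (-0.84 ± 0.31, adjusted p = 0.400).

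The most abundant tau gene, ncbi_8278055, had 764.55 to 1089.48 FPKM in untreated and 737.76 to 920.01 FPKM in rehydrated roots, which overlapped (log2 fold change -0.18 ± 0.41, edgeR adjusted p = 0.922). TCHQD, ncbi_8270976, which had fallen at 3 days, was at 4.44, 1.77 and 2.16 FPKM and at 4.92, 2.99 and 4.29 FPKM (0.48 ± 0.38, adjusted p = 0.736). The senescence-named genes summed to 1346.1 to 1439.2 FPKM in untreated and 605.9 to 865.8 FPKM in rehydrated roots, and their part in these values was not tested. None of the 11 tested ones was called at 11 days by edgeR, beside 0.0124% of all tested genes called in either direction.

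The change from PEG at 7 days to rehydration was also tested directly, as the difference between the effects at 11 and at 7 days. By edgeR no member was called, beside 0.671% of all tested genes. At an unadjusted p below 0.05 there were 11 members, a threshold at which the other genes were not counted. DESeq2 called 308 genes higher and 623 lower among all 16085 tested, and 1 call fell on a member. That call was the parC gene ncbi_8277756, with a difference of -2.76 ± 0.71 (edgeR adjusted p = 0.0698, DESeq2 adjusted p = 0.00659). The other parC gene, ncbi_8274525, was at -3.98 ± 1.74 (edgeR adjusted p = 0.214).

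In untreated roots no member differed between days by edgeR. For day 7 against day 3 no member reached an unadjusted p below 0.05, DESeq2 called none, and 0% of all tested genes were called. For day 11 against day 3 edgeR called 0.0311% of all genes. There were 7 members at an unadjusted p below 0.05, a threshold at which the other genes were not counted. Beside 22 genes higher and 39 lower among all 16085 tested, DESeq2 called 2 members. These were U9, ncbi_8277424, at 121.86, 152.97 and 115.51 FPKM on day 3 and 400.67, 354.42 and 277.57 FPKM on day 11 (log2 fold change 1.34 ± 0.32, edgeR adjusted p = 0.241, DESeq2 adjusted p = 0.017), and the U7-like gene ncbi_8287931, at 26.9, 71.06 and 32.8 FPKM and then 169.58, 150.47 and 182.15 FPKM (1.90 ± 0.48, edgeR adjusted p = 0.309, DESeq2 adjusted p = 0.0254). In both, the 2 days did not overlap. The untreated libraries of day 3 also serve the comparison with PEG at 3 days, so the values of the 2 comparisons are not independent.

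Around the glutathione S-transferases, 50 genes of glutathione supply, use and transport were found by product name, of which 44 were tested. At 3 days 4 were higher and 4 lower by edgeR, with a median of -0.09, and at 7 days 1 was higher. Among all tested genes 11.7% were higher and 11.4% lower at 3 days, and 2.59% higher at 7 days, and counts this small are not read as a result about the group. Neither glutamate-cysteine ligase (ncbi_8266472) nor glutathione synthetase (ncbi_8285514), the pair that makes glutathione, was called, and neither glutathione reductase, which returns the oxidised form to the reduced one, was called (ncbi_8274734 at 0.39 ± 0.22 and ncbi_8280686 at -0.42 ± 0.22). Both S-nitrosoglutathione reductase genes were uncalled, with a median of -0.03.

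Of 9 tested C-family ABC transporters, the group that holds the vacuolar pumps for glutathione conjugates, 2 fell and none rose at 3 days by edgeR, beside 11.4% lower among all tested genes. ncbi_8266736, named C family member 3-like, was at 7.0, 10.61 and 7.02 FPKM in untreated and 1.15, 0.47 and 1.35 FPKM in PEG roots, far from overlapping (log2 fold change -2.61 ± 0.37). XLOC_014167, named C family member 3, was at 1.74, 1.4 and 1.78 FPKM and 0.37, 0.56 and 0.41 FPKM (-1.26 ± 0.33, adjusted p = 0.0134), and its call ended without untreated library 1 (adjusted p = 0.0506) or PEG library 3 (0.0566).

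Among 13 tested genes named for glyoxalases or a glyoxalase domain, 2 rose at 3 days, beside 11.7% of all tested genes. Glyoxalase I and II use glutathione to clear methylglyoxal, and a gene named only for the domain may not share that role. ncbi_8275858 went from 0.6, 2.83 and 0.7 FPKM to 31.21, 9.12 and 6.55 FPKM (log2 fold change 3.93 ± 0.81, edgeR adjusted p = 0.00393), and ncbi_8272536 from 4.48, 20.32 and 11.66 FPKM to 72.04, 48.73 and 42.16 FPKM (2.59 ± 0.53). Neither gene overlapped between groups.

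Among 15 tested genes of cysteine supply, 2 rose and 2 fell at 3 days, beside 11.7% and 11.4% of all tested genes. Those that rose were a cysteine synthase-like gene (ncbi_8288433, 1.67 ± 0.51, edgeR adjusted p = 0.0287) and a serine acetyltransferase (ncbi_8266938, 1.45 ± 0.49), and those that fell were a pair named as bifunctional cyanoalanine and cysteine synthases, D1-like (ncbi_8288431, -2.14 ± 0.74, and ncbi_8288432, -1.72 ± 0.46). Each of these 4 calls ended without at least 1 library, at adjusted p = 0.0554 to 0.165. At 7 days gamma-glutamyltranspeptidase 3 (ncbi_8265116), which splits glutathione and its conjugates, rose from 34.41, 28.22 and 34.77 FPKM to 44.0, 54.24 and 49.33 FPKM (0.85 ± 0.22), a call that ended without any single library (adjusted p = 0.0682 to 0.178).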

How the data were processed

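RNA-seq libraries of 18 root samples were compared. The authors deposited estimated counts and FPKM per gene, per the file headers, while no aligner, counting tool, strand setting or genome build is given in the sources used here. The FPKM are scaled by library totals. For untreated samples of day 11, title and description name different FPKM columns, and 3 of the 36 per-sample columns were left out. Their FPKM were derived from counts, library size and gene length, with length taken from the ratio of count to FPKM in the other libraries. In those libraries the ratio of computed to deposited FPKM was 0.997 to 1.003 (5% and 95% quantiles). Counts were rounded, since a small share was not whole.

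All genes with enough counts (filterByExpr, minimum count 10, minimum total 15; 16085 genes, 75.4%) entered edgeR 4.0.16 in R 4.3.3, with TMM, 1 mean per group and the robust quasi-likelihood test in 7 comparisons. Adjusted p-values are Benjamini-Hochberg over all tested genes, and a call is an adjusted p below 0.05. How many of all genes had an unadjusted p below 0.05 was not counted, so member counts at that threshold cannot be set against them. Errors after a log2 fold change are approximate standard errors from the F statistic. Per-library values are single libraries and have no interval of their own. Alternatives used DESeq2 1.42.0, limma 3.58.1 on log2(FPKM + 1) or log2(FPKM + 0.1), other scalings and filters, a gene length trend, a replicate block and each library left out. The script for the test was run on simulated data.

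Named in full were, per comparison, up to 8 called members per direction by size of change with a mean of at least 1 FPKM, the 3 most abundant members, members called in an interaction and the most abundant of each class. Other genes named were chosen after their values were seen. The pattern for genes of conjugate breakdown was narrowed once the product names were seen, because it also took in another hydrolase. The members and lists were chosen with earlier results of these data known. Gene order came from the RefSeq assembly ASM1957865v1 and served only to name neighbours.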

Additional observations from a re-analysis of the deposited data

Results flagged for a closer look

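The U9 tau gene ncbi_8277424 stood out because its response differed between the days of PEG treatment. The test of the difference (7 days minus 3 days, edgeR's interaction term) gave -2.58 ± 0.45 on the log2 scale (adjusted p = 0.0202). All 3 PEG libraries of day 7 lay below all untreated libraries of that day, and 2 of 3 PEG libraries of day 3 lay above all untreated libraries of theirs. Over the alternatives and left-out libraries the adjusted p ran from 2.11e-05 to 0.116.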

How the results depend on the processing

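Under the alternatives run for them, no called gene named in the text changed sign, and uncalled genes were not followed one by one. The 14 higher members at 3 days became 6 when only the libraries compared were fitted, where 37 members were tested, and 10 to 13 with a library left out. Those 6 were 16.2% of the members tested, beside 4.6% of all genes. The 3 lower members became 5 with DESeq2, 9 with library totals, with the gene length trend removed or with limma without a filter, 11 with limma on log2(FPKM + 1) or log2(FPKM + 0.1), 0 with only the libraries compared, 1 at an adjusted p below 0.01, and 1 to 7 with a library left out. Most of these counts lay near the share of all genes that was lower. With DESeq2 11.6% of members stood beside 13.4% of all genes, and with library totals 20.9% beside 25.8%. With limma 25% stood beside 23.7% on log2(FPKM + 1), 25% beside 25.4% on log2(FPKM + 0.1), and 18.8% beside 19.3% without a filter. With the length trend removed 20.9% stood beside 8.44%. At 7 days the 0 higher members became 3 with DESeq2, beside 1034 of all 16085 tested genes. The 1 lower member became 4 with DESeq2, 3 with library totals or limma on log2(FPKM + 0.1), 5 with limma on log2(FPKM + 1), 2 with limma without a filter, only the libraries compared or the length trend removed, 0 without a count filter or at 0.01, and 0 to 3 with a library left out. Among all 16085 genes 654 were lower with DESeq2 and 450 with library totals. Limma on log2(FPKM + 1) and on log2(FPKM + 0.1) each called 564 of 15911 genes lower. Limma without a filter called 455 of 19104, the fit of only the libraries compared 40 of 15113, and the fit with the length trend removed 216 of 16073. The interaction of 7 and 3 days had 1 member and 0 with library totals, limma in each form, only the libraries compared or 0.01, and 0 to 1 with a library left out. The interaction of rehydration and 7 days had 0 members and 1 with DESeq2 or only the libraries compared, and 0 to 1 with a library left out. Day 11 against day 3 of untreated roots had 0 members and 2 with DESeq2. Rehydration and day 7 against day 3 of untreated roots had 0 members throughout. Apart from the smaller fits, the cause was not tested.

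With the replicate number as a block, 12 members were higher and 3 lower at 3 days, 0 were lower at 7 days and 0 were called in the interaction of 7 and 3 days. At 3 days these were 27.9% and 6.98% of members, beside 10.7% and 10.5% of all genes. The sources do not say whether equal numbers pair the samples. Correlations of same-numbered libraries were 0.625, 0.501 and 0.08 on day 3. They were 0.047, 0.503 and -0.227 on day 7, and 0.164, -0.154 and -0.156 on day 11. On day 3 untreated library 1 with PEG library 2 was at -0.55, and untreated library 2 with PEG library 1 at -0.547. Unlike-numbered pairs ran from -0.52 to 0.479 on day 7 and from -0.234 to 0.307 on day 11. Whether libraries 1 and 2 of day 3 were paired was not tested.

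Over all genes, 1883 were higher and 1829 lower at 3 days, against 912 and 4157 with library totals, 967 and 3773 with limma on log2(FPKM + 1), and 682 and 603 with only the libraries compared. At 7 days 417 were higher and 235 lower, against 1034 and 654 with DESeq2 and 188 and 450 with library totals. Genes with few counts, such as ncbi_8284305 and the parC gene ncbi_8274525, are limited by depth.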
